A study of Mus musculus with 4 samples.

Results

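Cldn18-positive cycling cells were 232 of the 1289 kept cells of 1 single-cell library of mouse intestinal epithelium, Lats-deleted replicate 2, and of 3304 kept cells in the 4 libraries of the series. Kept cells had at least 1000 counts, at least 300 detected genes and at most 30% of counts from mitochondrially encoded genes. A member had at least 2 counts summed over Cldn18, Sftpd and Pitx1 (the Cldn18 set) and at least 3 summed over Ccna2, Ube2c, Cdk1, Plk1, Top2a and Birc5 (the cycling set). It also had under 1% of its counts from the stomach pit genes Gkn1, Gkn2 and Tff1, and under 0.3% from the stomach gland genes Pgc and Muc6. The values of these 14 genes therefore chose the cells, and are given below only to describe them.

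The study profiled epithelial cells of the small intestine from adult C57BL/6J mice with droplet-based single-cell RNA-seq (inDrop v2). The Lats-deleted mice were Lrig1-CreERT2 Lats1fl/fl Lats2fl/fl (2 libraries), and the control mice were Lats1fl/fl Lats2fl/fl without the Cre (2 libraries). Both genotypes received 2 mg tamoxifen by intraperitoneal injection and were sampled on day 7. The cells were sorted as EpCAM+CD45-TER119-DAPI-. CreERT2 is driven from Lrig1, so recombination starts in Lrig1-expressing cells, a compartment that includes crypt stem and progenitor cells, and a Lats-deleted library can also hold cells that kept both genes. Nothing in the labels ties a library to 1 animal.

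LATS1 and LATS2 are the kinases at the end of the Hippo cascade: they phosphorylate the coactivators YAP and TAZ, which keeps them out of the nucleus and away from their TEAD partners. In the intestine, YAP activity is known for a regenerative, fetal-like state of the crypt marked by Clu, Ly6a and annexins. Cldn18 encodes a tight-junction claudin of stomach and lung, Sftpd the collectin surfactant protein D, and Pitx1 a homeodomain factor of the hindlimb and the pituitary. None of them is a standard marker of small-intestinal epithelium. Ccna2 (cyclin A2), Cdk1, Plk1, Ube2c, Top2a and Birc5 serve DNA replication, chromosome segregation and mitotic exit, and many genes of this kind carry a CHR element or CCAAT boxes in their promoters, bound by the DREAM/MuvB complexes and by NF-Y.

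To show what both parts of the rule look like in the genome, the 120 bases before the annotated start are printed for the 5 cycling genes that have a window and for both annotated starts of Cldn18 (RefSeq windows, GRCm38.p6, 5′ to 3′ on the gene's strand). Capitals mark the CHR element TTTGAA and the CCAAT box, each searched on both strands, so that they also appear as TTCAAA and ATTGG. The counts of Cldn18 do not separate its starts.
Cdk1, chr10:69352913-69353032, minus strand: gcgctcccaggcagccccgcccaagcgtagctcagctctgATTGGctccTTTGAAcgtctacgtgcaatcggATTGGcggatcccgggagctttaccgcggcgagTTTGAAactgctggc
Top2a, chr11:99024190-99024309, minus strand: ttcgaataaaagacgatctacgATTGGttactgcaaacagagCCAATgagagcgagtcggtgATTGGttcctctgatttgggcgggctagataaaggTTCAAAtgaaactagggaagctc
Ube2c, chr2:164769809-164769928, plus strand: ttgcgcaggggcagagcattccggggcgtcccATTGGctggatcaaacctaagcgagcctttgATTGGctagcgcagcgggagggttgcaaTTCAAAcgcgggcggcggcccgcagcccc
Birc5, chr11:117849117-117849236, plus strand: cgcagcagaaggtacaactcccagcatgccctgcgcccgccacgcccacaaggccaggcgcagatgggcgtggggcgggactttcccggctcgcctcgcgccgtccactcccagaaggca
Plk1, chr7:122159315-122159434, plus strand: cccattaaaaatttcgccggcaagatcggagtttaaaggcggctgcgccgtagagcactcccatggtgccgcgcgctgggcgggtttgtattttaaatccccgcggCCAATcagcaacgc
Cldn18, chr9:99710064-99710183, minus strand: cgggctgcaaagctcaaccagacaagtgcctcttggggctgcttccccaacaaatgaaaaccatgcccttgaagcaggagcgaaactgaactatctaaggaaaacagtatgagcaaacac
Cldn18, chr9:99717268-99717387, minus strand: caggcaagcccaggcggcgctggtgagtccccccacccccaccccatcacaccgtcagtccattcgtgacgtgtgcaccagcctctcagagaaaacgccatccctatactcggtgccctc
In these 120 bases, Cdk1, Top2a and Ube2c held both motifs, Plk1 held CCAAT only, and neither Birc5 nor either Cldn18 window held one. The tables held no window for Ccna2, Sftpd or Pitx1. In windows of these 120 bases, the CHR element was found for 9 of 31 genes of a G2 and M phase list (29.0%), for 1 of 24 genes of an S phase list (4.17%), for 5.05% of 6990 genes compared below and for 8.28% of all 27025 genes with a window. CCAAT was found there for 83.9% of the G2 and M genes, 50% of the S genes, 28.8% of the genes compared and 24.2% of all genes. In the whole windows of 300 bases (250 before and 50 after the start), the CHR element was found for 71.0% of the G2 and M genes, 12.5% of the S genes, 14.1% of the genes compared and 20.2% of all genes. There, 4 of the 5 cycling genes of the rule with a window held both motifs, Plk1 among them. A match is a description of the letters, not a binding site.

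All comparisons below are between classes of cells within 1 library. Cells are not replicates, so no test is given. Levels are CPM, the counts summed over a class as a share of all its counts scaled up to a common total. CPM here is not corrected for gene length, so levels are compared between cells and not between genes. Intervals are exact 95% intervals and cover counting error only. A difference is counted when it reaches 2-fold, among 9089 genes with at least 10 CPM in all kept cells of the library.

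Every member held counts of both sets by construction, and the single genes of the rule varied between members. Cldn18 was detected in 214 members (92.2%, 88.0 to 95.3), with a median of 5 and a maximum of 29 counts per cell. Sftpd was detected in 81.9% of members and Pitx1 in 25.4%, and 43 members had all 3 genes. Of the rest, 18 members passed with no Cldn18 count and 30 with Cldn18 as their only gene of the set. Of the cycling genes, Ccna2 was detected in 75.4% of members, Top2a in 65.9%, Birc5 in 63.8%, Ube2c in 60.8%, Cdk1 in 53% and Plk1 in 42.2%. All 5 marker genes of the label (Cldn18, Sftpd, Pitx1, Ccna2, Ube2c) are genes of the rule, so their detection does not check the label. Pitx1 had a median of 0 counts per member. The gastric secreted factor Tff1 still had a count in 64.2% of members and Gkn1 in 4.31%, both under the rule's limit. Epcam, the surface protein of the sort, and Mki67, a common proliferation marker, have no column among those used here.

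**Figure D1:**
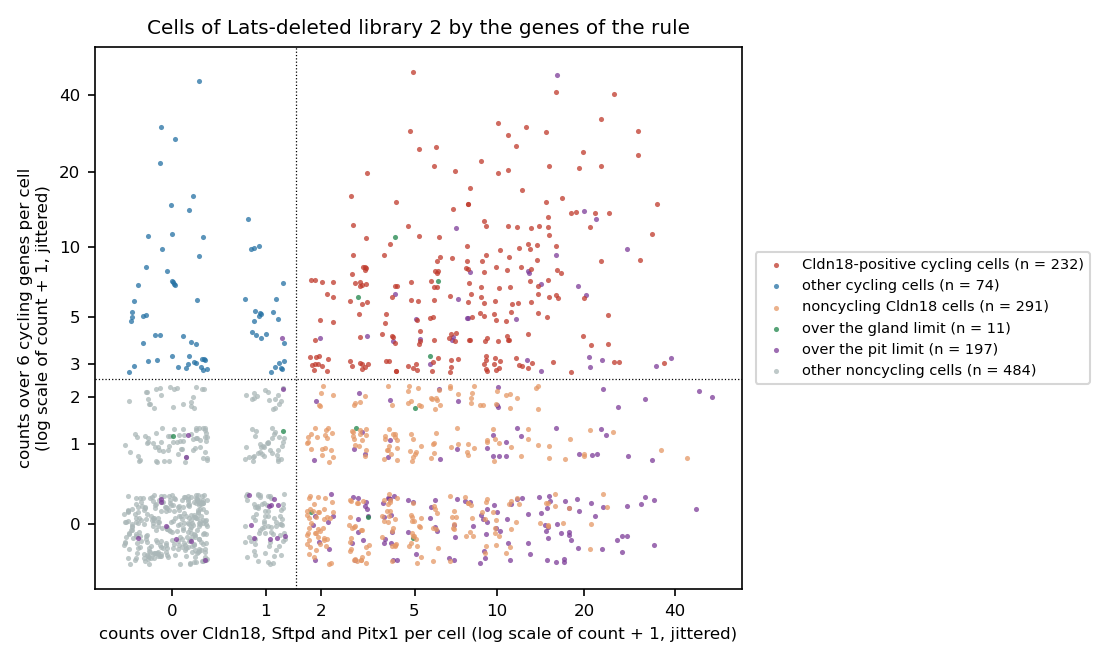
Each point is a kept cell of Lats-deleted replicate 2, placed by its summed counts of Cldn18, Sftpd and Pitx1 (x axis) and of the 6 cycling genes (y axis), both on a log scale of count + 1 with jitter, and dotted lines mark the minimums of 2 and 3 counts. The 232 Cldn18-positive cycling cells (red) fill the upper right, next to 74 other cycling cells (blue), 291 noncycling Cldn18 cells (orange) and the cells left out by the stomach limits (purple and green).

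The edges of the rule were populated on both sides. Inside, 19 members had exactly 2 counts over the Cldn18 set and 52 had exactly 3 over the cycling set. Outside, 25 cycling cells had 1 count over the Cldn18 set, and 43 Cldn18-set cells had 2 counts over the cycling set. A further 36 cells passed both minimums but reached a stomach limit, 32 of them the pit limit. Deep cells meet such minimums more easily: the members had a median of 6211 counts (1038 to 17989), against 4675 in the other cycling cells, 3962 in the noncycling Cldn18 cells and 3375 in all other kept cells. Scrublet, which looks for droplets with 2 cells, called 2 of the members.

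Free RNA can give a cell a count of a gene it does not express, so the share with Cldn18 in cells of another type is given. The rule chose the members by counts of the Cldn18 set, so their own higher share was fixed in advance. The part of free RNA in the members' counts was not tested. After each cell was thinned to 1000 counts, 60.3% of members (53.7 to 66.7) had a Cldn18 count, against 6.45% (0.791 to 21.4) of 31 enterocyte-rich cells, those with at least 3% of their counts from an enterocyte list. Unthinned, the shares were 92.2% at a median of 6211 counts in the members and 9.68% at 2396 in the enterocyte-rich cells. The 13400 barcodes under 300 counts in this library held Cldn18 at 744 CPM, against 830 CPM in its kept cells.

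Members were almost restricted to 1 of the 2 Lats-deleted libraries. The same rule found 2 of 726 kept cells in Lats-deleted replicate 1 (0.275%, 0.0334 to 0.992), 232 of 1289 in replicate 2 (18%, 15.9 to 20.2), 0 of 774 in control replicate 1 (which allows up to 0.388%) and 0 of 515 in control replicate 2 (up to 0.583%). At least 2 counts of the Cldn18 set were found in 27 cells of Lats-deleted replicate 1, 708 cells of Lats-deleted replicate 2 and 0 cells of each control. At least 3 counts of the cycling set were found in 66 cells of Lats-deleted replicate 1, 343 of Lats-deleted replicate 2, 24 of control 1 and 16 of control 2. These minimums are absolute counts, and control cells were shallower. The median per kept cell was 3715.5 counts in Lats-deleted replicate 1, 3848 in replicate 2, 1708 in control 1 and 1995 in control 2. With cells thinned to 3000 counts, members were 2 of 444 cells, 115 of 769, 0 of 121 and 0 of 114 in the same order. Cldn18 stood at 4.77 CPM in Lats-deleted replicate 1, 830 CPM in Lats-deleted replicate 2, 4.36 CPM in control 1 and 3.26 CPM in control 2. Without the members it was still 759 CPM in replicate 2. The 2 Lats-deleted libraries do not agree on these cells, so no statement about the deletion can be made from them.

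**Figure D2:**
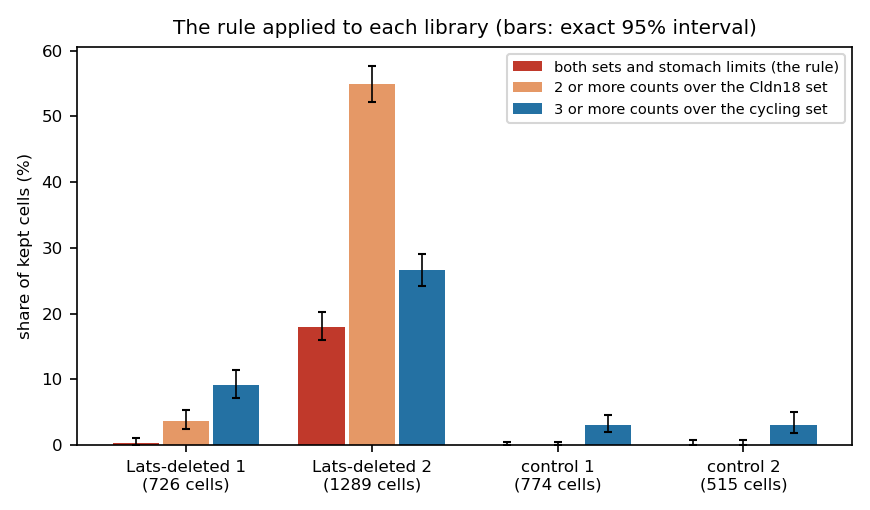
Share of kept cells (%) in each library that met the whole rule (red), the Cldn18 set alone (orange) or the cycling set alone (blue), with exact 95% intervals for counting error. Lats-deleted replicate 2 reached 18% for the whole rule, against 0.275% in Lats-deleted replicate 1 and 0 in both controls, and cycling cells were present in all 4 libraries. Cells were not thinned here, and those of the controls were shallower.

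Barcodes and sex-linked RNA were also compared across the libraries. Lats-deleted replicate 2 shared 12 kept barcodes with Lats-deleted replicate 1, 8 with control 1 and 8 with control 2, and 7 of these 28 were members. The other pairs of libraries shared 4 each. The X-inactivation RNA Xist was at 539 CPM in members and 493 CPM in the other kept cells of the library, and over whole libraries at 640 CPM in Lats-deleted replicate 1, 9.35 CPM in control 1 and 6.51 CPM in control 2. Y-linked genes were at 20.5 CPM in members and 27.1 CPM in the other kept cells, and over whole libraries at 34.8 CPM in Lats-deleted replicate 1, 93.5 CPM in control 1 and 108 CPM in control 2. Both Lats-deleted libraries thus held both kinds of RNA, and 26 members had counts of both. Whether either library holds cells of more than 1 animal was not tested. The targeted genes were near the limit of detection: Lats1 was at 8.60 CPM in members and 10.2 CPM in other kept cells, and over libraries at 7.58 CPM in Lats-deleted replicate 1, 20.6 CPM in control 1 and 32.6 CPM in control 2. Lats2 was at 18.5 CPM in members and 22.2 CPM in other kept cells, 29.8 CPM in Lats-deleted replicate 1, 8.11 CPM in control 1 and 9.77 CPM in control 2. The sources used here do not say whether the counted ends of these transcripts lie inside the deleted exons, so these levels check nothing.

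Set against the 74 other cycling cells of the library, the members had higher levels of several stomach genes and lower levels of several intestinal surface genes, at similar levels of division genes. By the rule, Cldn18 was at 1033 CPM in members and 15.7 CPM in other cycling cells. Sftpd was at 361 CPM in members and 26.2 CPM in other cycling cells. Outside the rule, 6 of 8 measured genes of a stomach pit list were at least 2-fold higher, with a median log2 ratio of 1.68, beside 8.3% of all genes compared at least 2-fold higher and 7.01% at least 2-fold lower (median log2 0.03). The rule selected for Cldn18, Sftpd and Pitx1 in the same cells, so these counts are a description. Against all other kept cells, 0 of these 8 pit genes were at least 2-fold higher and 1 was lower (median log2 -0.67). All 8 were below 1-fold there, beside 5.01% of all genes at least 2-fold higher and 8.45% lower. Outside the rule, the pit list summed to 3763 CPM in members, 1430 CPM in other cycling cells and 5990 CPM in other kept cells. The rule's pit limit keeps pit-rich cells out of the members and among the other kept cells, so this last comparison is not independent of the rule. The 197 cells over that limit held 14628 of the 25850 pit list counts of the other kept cells (17771 CPM). The list summed to 4436 CPM in noncycling Cldn18 cells and 2229 CPM in other noncycling cells. The mucin-like Dpcr1 was at 674 CPM in members and 107 CPM in other cycling cells (6.28-fold, 4.60 to 8.81). The trefoil peptide Tff2 was at 1145 CPM in members and 322 CPM in other cycling cells. Tff2, though placed in this list, is chiefly a product of the mucous neck cells of the stomach. The aspartic protease Ctse (cathepsin E) was at 447 CPM in members and 154 CPM in other cycling cells. The gastric junction protein Vsig1 was at 138 CPM in members and 36.7 CPM in other cycling cells. The gastrokine Gkn3 was at 41.0 CPM in members and 7.85 CPM in other cycling cells. The fold of several depended on where the Cldn18 minimum lay: with a minimum of 3, which moves 19 cells across, it was 1.44 for Tff2 and 1.34 for Gkn3. With every cell weighted equally, it was 3.54 for Dpcr1 and 1.79 for Ctse. The mucin Muc1, chosen after its values were seen, was at 695 CPM in members and 107 CPM in other cycling cells (6.47-fold). Of 3 gland genes compared outside the rule, 0 were at least 2-fold higher or lower than in other cycling cells (median log2 0.13). Outside the rule, the gland list summed to 156 CPM in members, 152 CPM in other cycling cells and 825 CPM in other kept cells. In the other kept cells 75.5% of these counts came from 5 cells. Gif and Atp4b were at 0 in members, but Pgc and Muc6, which the rule limits only from above, were not. Pgc (pepsinogen C) was at 97.3 CPM in members and 10.5 CPM in other cycling cells, from 147 counts in members and 4 counts in other cycling cells. It was detected in 27.6% of members and 6.72% of all other kept cells, and, after thinning to 1000 counts, in 10.3% of members and 1.35% of other cycling cells. The gland mucin Muc6 was at 35.7 CPM in members and 2.62 CPM in other cycling cells, from 54 counts in members, 24.1% of them in 1 cell, and 1 count in other cycling cells.

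The 8 genes with the highest ratio to the other cycling cells, outside the rule, were spread over several functions. Ly6k, a GPI-anchored Ly6-family protein, was at 146 CPM in members and 7.85 CPM in other cycling cells (18.5-fold, 6.26 to 90.5). Adh7, the alcohol dehydrogenase of the upper digestive tract, was at 78.7 CPM in members and 5.24 CPM in other cycling cells (15-fold, 4.07 to 126). Krt4, a keratin of stratified epithelia such as the oesophagus, was at 165 CPM in members and 15.7 CPM in other cycling cells (10.5-fold, 4.77 to 29.0). Secreted proteins were among them too. Osteopontin, Spp1, was at 371 CPM in members and 36.7 CPM in other cycling cells (10.1-fold, 5.98 to 18.6). The glycoprotein Lrg1 was at 68.8 CPM in members and 5.24 CPM in other cycling cells (13.1-fold, 3.55 to 110). The ligand Tgfb3 was at 53.6 CPM in members and 5.24 CPM in other cycling cells (10.2-fold, 2.74 to 85.9). These intervals are wide because the other cycling cells had few counts. The sulfotransferase Sult1c2 was at 171 CPM in members and 18.3 CPM in other cycling cells. The coactivator Eya2 was at 74.1 CPM in members and 10.5 CPM in other cycling cells. The folds of these genes moved with the settings and stayed above 2: with a minimum of 3 Cldn18-set counts that of Spp1 was 2.72 and that of Lrg1 2.2, and with every cell weighted equally that of Krt4 was 4.77, that of Adh7 5.79 and that of Ly6k 9.21. Among foregut factors 3 of 10 were at least 2-fold higher: Sox2, Foxa3 and Gata4, the last at 1.34-fold with a minimum of 3 Cldn18-set counts. Sox2, the factor of foregut and stomach identity (GRCm38, chr3:34650405-34652461, plus strand), had 51 counts in 41 members (33.7 CPM, 25.1 to 44.4) and none in the other cycling cells, which is at least 4.3-fold higher against a floor of 3 counts. It overlaps the transcript Sox2ot, and the strand used for counting is not given in the sources used here. Other squamous genes did not follow Krt4: Dsg3 and Krt17 were at 0 in members, and 1 of 5 measured genes of the squamous list was at least 2-fold lower. The lung genes beside Sftpd were split. Sftpc and Napsa were at 0 in members, and of the 3 other genes compared 1 was at least 2-fold higher and 1 lower than in other cycling cells. The lysosomal Lamp3 was at 19.8 CPM in members and 7.85 CPM in other cycling cells, from 30 counts in members and 3 counts in other cycling cells. Hopx, a homeodomain protein, was at 5.95 CPM in members and 23.6 CPM in other cycling cells, and the lipid transporter Abca3 at 45.6 CPM in members and 65.5 CPM in other cycling cells.

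The 8 genes with the lowest ratio to the other cycling cells included adhesion and surface proteins of the intestinal epithelium. Clca3b, of the chloride channel accessory family, was at 45.6 CPM in members and 725 CPM in other cycling cells (15.9-fold lower, 12.2 to 21.0). The tight-junction claudin Cldn3 was at 37.7 CPM in members and 516 CPM in other cycling cells (13.7-fold lower, 10.1 to 18.7). After thinning to 3000 counts it was detected in 7.84% of 204 members (4.55 to 12.4) and 67.3% of 52 other cycling cells (52.9 to 79.7), and unthinned in 10.3% of members and 64.9% of other cycling cells. Cldn3 is a common claudin of intestinal epithelium and was not a gene of the rule. The brush border cadherin Cdhr5 was at 11.9 CPM in members and 141 CPM in other cycling cells. The transmembrane mucin Muc13 was at 19.8 CPM in members and 170 CPM in other cycling cells. Another cadherin followed the same direction. The liver-intestine cadherin Cdh17 was at 29.1 CPM in members and 220 CPM in other cycling cells. The membrane protein Pmp22 was at 22.5 CPM in members and 280 CPM in other cycling cells. Under every alternative these surface genes stayed lower, and with a minimum of 5 cycling counts the folds were larger, 37.4 for Clca3b and 24.1 for Cldn3. Of 10 intestinal identity factors, 4 were at least 2-fold lower and 1 (Gata4) higher. Cdx2, the homeodomain factor of intestinal identity, was at 25.1 CPM in members and 102 CPM in other cycling cells (4.06-fold lower, 2.53 to 6.52). The intestine-specific homeobox gene Isx was at 3.97 CPM in members and 39.3 CPM in other cycling cells.

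An interferon-response list was also lower in members than in other cycling cells, at 13 of 16 genes (median log2 -1.67). It summed to 1053 CPM in members, 2636 CPM in other cycling cells, 2251 CPM in noncycling Cldn18 cells and 4494 CPM in other noncycling cells. Cells over the pit limit were as low as the members, at 946 CPM, so the low level was not particular to the members. Ifi27l2b was at 10.6 CPM in members and 91.6 CPM in other cycling cells. The immunoproteasome subunit Psmb8 was at 9.92 CPM in members and 81.2 CPM in other cycling cells. B2m, the light chain of MHC class I, was at 179 CPM in members and 573 CPM in other cycling cells. Leukocyte markers summed to 74.1 CPM in members and 484 CPM in other cycling cells, where 78.9% of them came from 1 cell, and their part in the difference was not tested. Paneth genes were lower at 5 of 5, but 99.3% of the Paneth counts of the other cycling cells were in 1 cell, and 72.8% of their stromal counts also in 1 cell.

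Division itself hardly separated the 2 classes of cycling cells. Of 28 S phase genes 1 was at least 2-fold higher in members and none lower (median log2 0.25), and of 32 G2 and M genes 1 was higher, Hmgb2, and 1 lower, Gtse1 (median log2 -0.09). The mitotic activator Cdc20 was at 129 CPM in members and 120 CPM in other cycling cells. Ccnd1, cyclin D1, was at 1010 CPM in members and 1081 CPM in other cycling cells. Both classes had been chosen by the same cycling minimum.

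**Figure D3:**
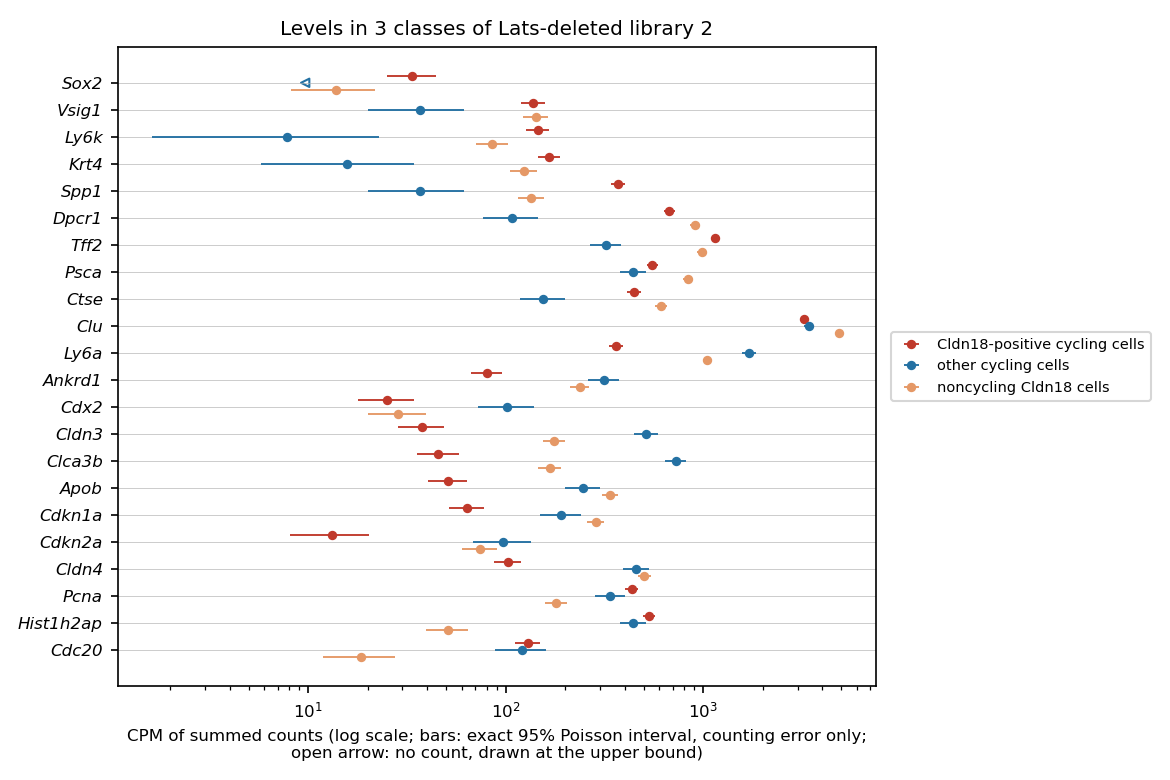
CPM of summed counts (log axis) for 22 genes in the Cldn18-positive cycling cells (red), the other cycling cells (blue) and the noncycling Cldn18 cells (orange), with exact 95% Poisson intervals, and an open arrow at the upper bound where a class had no count. Red lies with orange and away from blue for Dpcr1 (674 CPM in members and 107 CPM in other cycling cells) and Ly6k, with blue and away from orange for Hist1h2ap and Cdc20, and below both for Cldn3, Cdkn1a and Cldn4.

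Against the 291 noncycling Cldn18 cells, the members differed by their division genes and by a second group that was lower: cell-cycle inhibitors, absorptive genes and claudins. Cldn18 itself was at 1033 CPM in members and 996 CPM in noncycling Cldn18 cells. Sftpd was at 361 CPM in members and 363 CPM in noncycling Cldn18 cells. Of 28 S phase genes 18 were at least 2-fold higher (median log2 1.19), and of 32 G2 and M genes 28 (median log2 2.08), beside 3.89% of all genes higher and 5.91% lower (median log2 0.00). The rule chose the members by 6 genes of the same programme, so nothing is read from these counts. The replication-dependent histone Hist1h2ap was at 532 CPM in members and 50.8 CPM in noncycling Cldn18 cells (10.5-fold), although near-identical histone copies make the share of each uncertain. The spindle motor Kif11 was at 55.6 CPM in members and 6.16 CPM in noncycling Cldn18 cells (9.02-fold). The same held for checkpoint and replication genes. The checkpoint kinase Bub1b was at 64.8 CPM in members and 9.24 CPM in noncycling Cldn18 cells. The replicative helicase subunit Mcm3 was at 144 CPM in members and 44.7 CPM in noncycling Cldn18 cells. The ribonucleotide reductase subunit Rrm1 was at 273 CPM in members and 75.5 CPM in noncycling Cldn18 cells. Of 29 regenerative genes 1 was at least 2-fold higher here and 4 were lower, and 24 were below 1-fold (median log2 -0.48). The higher gene was Spp1, at 371 CPM in members and 134 CPM in noncycling Cldn18 cells (2.77-fold, 2.33 to 3.30). Sox2 was at 33.7 CPM in members and 13.9 CPM in noncycling Cldn18 cells (2.43-fold), and the ratio was 1.53-fold with a minimum of 5 counts over the cycling set.

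The inhibitors of division were lower in members. Of 14 genes in a list of p53 targets and cell-cycle inhibitors, 8 were at least 2-fold lower than in noncycling Cldn18 cells and none higher (median log2 -1.27). The rule split these 2 classes by counts of cycling genes, so lower inhibitors of division are not independent of the rule. The CDK inhibitor Cdkn1a (p21) was at 63.5 CPM in members and 285 CPM in noncycling Cldn18 cells (4.49-fold lower, 3.58 to 5.68). Cdkn2a, the locus of p16 and p19ARF, was at 13.2 CPM in members and 74.0 CPM in noncycling Cldn18 cells (5.59-fold lower, 3.43 to 9.56). The p53 target Phlda3 was at 16.5 CPM in members and 60.9 CPM in noncycling Cldn18 cells, while Trp53 itself, the gene of p53, was at 144 CPM in members and 126 CPM in noncycling Cldn18 cells. The inhibitor was lower than in the other class of cycling cells too, with Cdkn1a at 63.5 CPM in members and 191 CPM in other cycling cells, 3.01-fold lower. After thinning to 3000 counts, Cdkn1a was detected in 13.7% of members, 36.5% of other cycling cells and 37.0% of noncycling Cldn18 cells, and unthinned in 21.1% of members, 36.5% of other cycling cells and 35.7% of noncycling Cldn18 cells.

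Absorptive and junction genes followed the same direction. Apob, the scaffold of chylomicrons, was at 50.9 CPM in members and 337 CPM in noncycling Cldn18 cells (6.62-fold lower, 5.19 to 8.55). Cldn4 was at 103 CPM in members and 504 CPM in noncycling Cldn18 cells (4.91-fold lower, 4.12 to 5.89). Cldn3 was at 37.7 CPM in members and 176 CPM in noncycling Cldn18 cells (4.66-fold lower). The 2 claudins seal tight junctions. The tetraspanin-like Tm4sf4 was at 17.2 CPM in members and 108 CPM in noncycling Cldn18 cells. The serpin Serpinb9b was at 209 CPM in members and 929 CPM in noncycling Cldn18 cells. Of 22 enterocyte genes 9 were at least 2-fold lower and 1, Reg1, higher. Of 14 AP-1 and immediate early genes 6 were lower, among them Ier3 and Dusp1, and of 16 interferon genes 10. Stomach pit genes did not separate the 2 classes: 0 of 8 passed 2-fold (median log2 -0.29), and neither did any of 19 Hippo components or 9 genes of the Lgr5 stem list. Enteroendocrine genes were lower at 8 of 11, but 47.8% of those counts in the noncycling Cldn18 cells came from 1 cell.

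**Figure D4:**
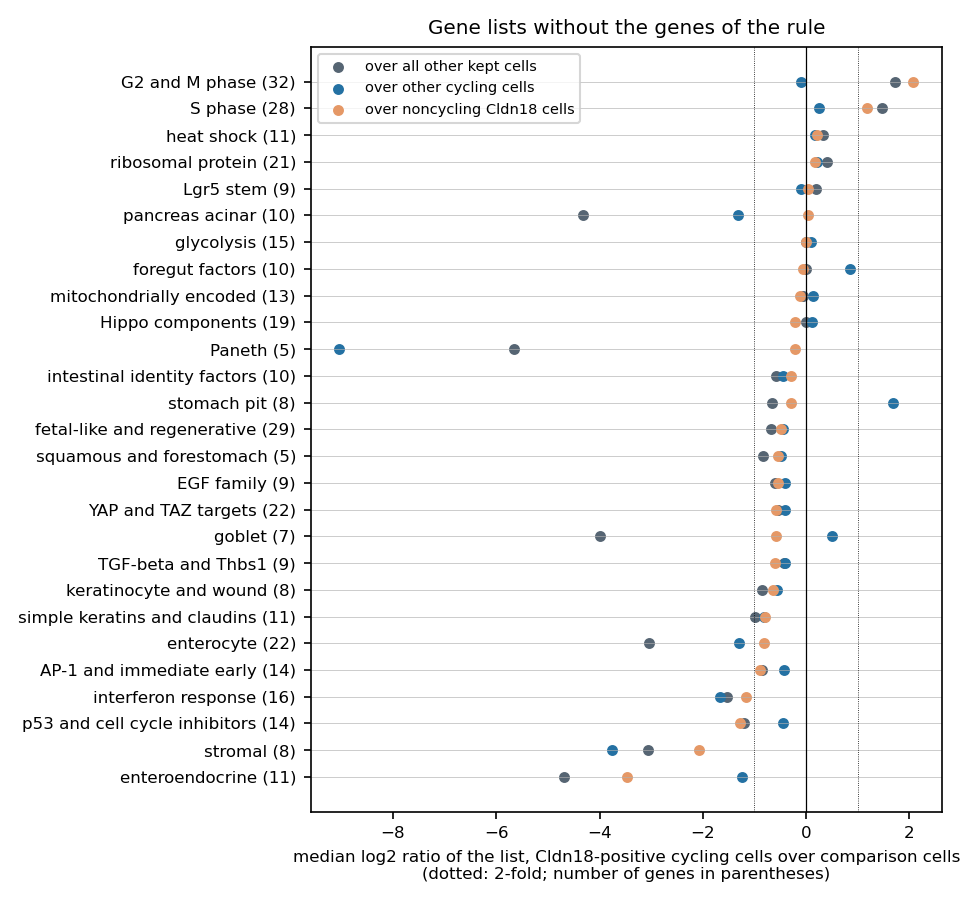
Median log2 ratio of each gene list (genes of the rule left out, number of genes in parentheses) in the Cldn18-positive cycling cells over all other kept cells (grey), over other cycling cells (blue) and over noncycling Cldn18 cells (orange), with dotted lines at 2-fold. Stomach pit genes lie beyond 2-fold only over other cycling cells (1.68), S and G2 and M phase genes only over the other 2 classes, and interferon genes more than 2-fold lower over all 3 classes.

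Against all 1057 other kept cells, the members had lower levels of genes of mature intestinal cells, which lay mainly in the other noncycling cells. The enterocyte list summed to 821 CPM in members, 1372 CPM in other cycling cells, 1179 CPM in noncycling Cldn18 cells, 842 CPM in cells over the pit limit and 6535 CPM in other noncycling cells. Of 22 enterocyte genes 20 were at least 2-fold lower (median log2 -3.03), beside 5.01% of all genes compared higher and 8.45% lower (median log2 0.05). The retinol carrier Rbp2 was at 1.32 CPM in members and 105 CPM in other kept cells (79.0-fold lower, 21.7 to 654). The alkaline phosphatase Alpi was at 1.98 CPM in members and 94.5 CPM in other kept cells. The fatty-acid carrier Fabp1 was at 1.32 CPM in members and 69.1 CPM in other kept cells. These carriers and enzymes mark absorptive cells of the villus, and few cells held them: after thinning to 1000 counts, Rbp2 was detected in 0 members (which allows up to 1.58%) and 2.74% of other kept cells. The calcium-binding S100g had no count in members and 64.4 CPM in other kept cells, at least 32.5-fold lower. Goblet genes were lower at 6 of 7, with Muc2, the main gel-forming mucin, at 1.32 CPM in members and 71.8 CPM in other kept cells. Of the goblet counts of the other kept cells 67.4% came from 5 cells and 27.7% from 1, and a goblet count was found in 46.6% of members and 42.8% of other kept cells. Krt20, a keratin of differentiated cells, was at 169 CPM in members and 872 CPM in other kept cells (5.15-fold lower, 4.54 to 5.87). Ribosomal protein genes stood slightly above 1-fold in all 21 cases (median log2 0.40), and none reached 2-fold. The mitochondrial chaperonin Hspe1 was at 672 CPM in members and 298 CPM in other kept cells (2.26-fold, 2.07 to 2.45). The stem-cell receptor Lgr5 was at 3.97 CPM in members and 6.26 CPM in other kept cells, from 6 counts in the members.

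Regenerative genes were present in the members, at or below their level in the other classes for the best-known of them. Clu was at 3254 CPM in members, 3425 CPM in other cycling cells and 4887 CPM in noncycling Cldn18 cells, and the calcium- and phospholipid-binding Anxa1 at 499 CPM in members and 521 CPM in other cycling cells. Ly6a (Sca-1) was much lower, at 363 CPM in members, 1707 CPM in other cycling cells (4.71-fold lower, 4.20 to 5.28) and 1048 CPM in noncycling Cldn18 cells (2.89-fold lower). It was detected in 41.2% of members, 88.5% of other cycling cells and 64.6% of noncycling Cldn18 cells after thinning to 3000 counts, and unthinned in 51.3% of members, 85.1% of other cycling cells and 63.2% of noncycling Cldn18 cells. Of 29 fetal-like and regenerative genes, 4 were at least 2-fold higher than in other cycling cells (Ly6d, Spp1, Gja1, Ly6k) and 5 lower (Ly6a, Il1rn, Basp1, Tm4sf4, Plat). Of all genes compared, 8.3% were at least 2-fold higher than in other cycling cells and 7.01% lower. The list leaned lower, with 21 of 29 genes below 1-fold (median log2 -0.44), and 24 of 29 against all other kept cells (-0.68). It summed to 26879 CPM in members, 36036 CPM in other cycling cells and 43848 CPM in other kept cells. Of 22 YAP and TAZ targets 3 were at least 2-fold higher than in other cycling cells and 5 lower, and 15 were below 1-fold (median log2 -0.42). Ankrd1, a mechanosensitive YAP target, was at 80.1 CPM in members and 314 CPM in other cycling cells (3.92-fold lower, 3.02 to 5.09), and the YAP target Ctgf was at 405 CPM in members (1.1-fold lower, 0.922 to 1.3).

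The members varied among themselves in cycle phase. By summed counts of the 2 phase lists, 157 members had more G2 and M counts and 72 more S counts, 3 were equal, and 21 lay within 2 counts of the divide, so these are ranges and not types. The lists differ in length (35 G2 and M genes, 29 S genes), so the split does not measure time spent in a phase. More S counts were found in 31.0% of members and 28.4% of other cycling cells, chosen by the same cycling minimum. The ranges were similarly deep, with medians of 6210 counts in the G2 and M members and 6383.5 in the S members. Cldn18 did not follow the phase: it was at 1059 CPM in G2 and M members and 990 CPM in S members (1.07-fold, 0.960 to 1.19). Several epithelial genes did differ by more than counting error. Dpcr1 was at 838 CPM in G2 and M members and 349 CPM in S members (2.40-fold, 2.03 to 2.84). Cldn4 was at 125 CPM in G2 and M members and 58.6 CPM in S members. Ly6a was at 425 CPM in G2 and M members and 238 CPM in S members (1.78-fold). Krt4 was at 191 CPM in G2 and M members and 111 CPM in S members (1.72-fold). In the opposite direction, Ly6k was at 120 CPM in G2 and M members and 199.97 CPM in S members (0.599-fold, 0.456 to 0.790). Spp1 was at 328 CPM in G2 and M members and 444 CPM in S members. Clu and Muc1 lay within 1.1-fold.

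The members lay partly together when the 14 genes of the rule were removed. On 30 principal components, 57.4% of their 15 nearest neighbours were members, who are 18% of kept cells, and 23.2% were noncycling Cldn18 cells, 5.06% other cycling cells and 6.55% cells over the pit limit. The other cycling cells had 24.0% members and 15% of their own class among their neighbours, and 40.1% other noncycling cells. Leiden clustering spread 37.1%, 33.6% and 18.5% of the members over 3 clusters, of which they made up 55.5%, 48.4% and 21.0%. Other genes that travel with the rule's genes remain in such a map, and depth differs between the classes, so the shares describe the library and do not test it.

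**Figure D5:**
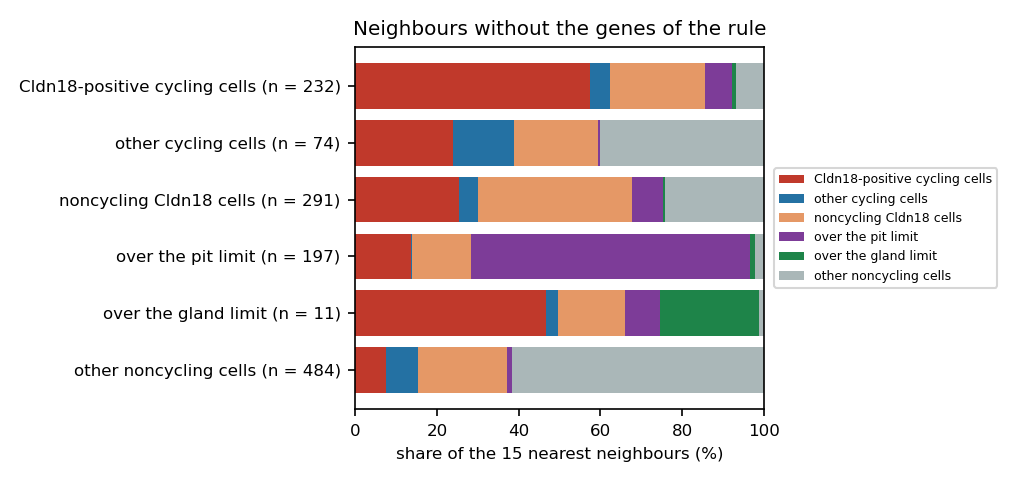
Share (%) of each class among the 15 nearest neighbours of the cells of each class in Lats-deleted replicate 2, computed without the genes of the rule. Members make up 57.4% of the members' own neighbours and 24.0% of those of the other cycling cells.

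Across the 4 libraries, the 8 genes with the highest ratio to other cycling cells were at 29.3 to 168 CPM in Lats-deleted replicate 2, against 1.40 to 11.8 CPM in Lats-deleted replicate 1 and 0 to 8.14 CPM in the controls. The stomach and foregut lists were less uneven. Stomach pit genes outside the rule summed to 1263 CPM in Lats-deleted replicate 1, 5413 CPM in Lats-deleted replicate 2, 554 CPM in control 1 and 382 CPM in control 2. Foregut factors summed to 416 CPM in Lats-deleted replicate 1, 517 CPM in Lats-deleted replicate 2, 399 CPM in control 1 and 406 CPM in control 2. Single stomach genes differed in this too. Over all kept cells, Tff2 was at 1.68 CPM in Lats-deleted replicate 1, 1361 CPM in Lats-deleted replicate 2, 0 in control 1 and 2.44 CPM in control 2. Krt4 was at 3.37 CPM in Lats-deleted replicate 1, 117 CPM in Lats-deleted replicate 2, 1.25 CPM in control 1 and 1.63 CPM in control 2. Spp1 was at 11.2 CPM in Lats-deleted replicate 1, 168 CPM in Lats-deleted replicate 2 and 0 in both controls. Gkn3 was at 0.842 CPM in Lats-deleted replicate 1, 62.8 CPM in Lats-deleted replicate 2, 44.9 CPM in control 1 and 17.9 CPM in control 2. These 4 genes were highest in Lats-deleted replicate 2, and Gkn3 alone of them was well above 0 in the controls. The members held 57.4% of the Spp1 counts of Lats-deleted replicate 2, 61.4% of its Sox2 counts and 32.3% of its Cldn18 counts. Beside this, they held 1511523 of the 5826856 counts of all its kept cells, and were 18% of those cells. The regenerative genes Clu and Ly6a were high in both Lats-deleted libraries. Clu was at 5053 CPM in Lats-deleted replicate 1, 4591 CPM in Lats-deleted replicate 2, 6.86 CPM in control 1 and 7.33 CPM in control 2. Ly6a was at 2392 CPM in Lats-deleted replicate 1, 1072 CPM in Lats-deleted replicate 2, 1.87 CPM in control 1 and 0 in control 2. The 64 other cycling cells of Lats-deleted replicate 1 had Krt4 at 5.28 CPM, Ly6a at 2076 CPM and Cldn3 at 470 CPM, nearer to the other cycling cells of replicate 2 than to its members. Cldn3 was at 449 CPM in the 24 cycling cells of control 1 and at 340 CPM in the 16 of control 2.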

How the data were processed

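The authors deposited a table of counts per cell barcode and gene for each library, and all values are whole numbers. Whether they count molecules or reads is not given in the sources used here. Per the submitters' processing notes, the mm10 build, RSEM 1.3.0, Bowtie 1.1.1.1 and SAMtools 1.3.1 were used, with no role or order given. Cells were kept and classed by the stated rule. Members and gene lists were chosen with earlier results of these data known. Counts were summed per class and scaled to CPM. Ratios carry exact conditional binomial intervals. They were run on data simulated with Poisson counting error alone, which cannot show how they hold under variation between cells. A ratio against 0 counts uses a floor of 3 counts. Named genes were the rule's genes, Lats1, Lats2, Lrig1, the highest and lowest ratios at 50 CPM or more in at least 10 cells with no cell over 20% of the counts, and up to 4 genes per list. Further list genes serve as examples chosen after their values were seen. Total counts were 4731529 and 9191916 in the Lats-deleted libraries and 2872497 and 2247269 in the controls. The doublet caller of scanpy 1.11.5 (Scrublet) called 7 of 1289 cells, 2 of them members. Whether deep members are pairs of cells was not tested further. Coordinates are from GENCODE M21 (GRCm38), in which 97.1% of 25289 gene columns matched. Dpcr1, Ctgf and Cyr61 have none under those symbols. Python 3.11.15, scipy 1.17.1 and edgeR 4.0.16 (TMM only) were used. Alternatives varied the rule's minimums, scaling, filter, depth and doublets.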

Additional observations from a re-analysis of the deposited data

How the results depend on the processing

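No paired analysis was possible because every comparison lies within 1 library and comes from no test. For the same reason no library could be left out. The minimum of 2000 counts and the other cycling cells with no Cldn18-set count were alternatives chosen after seeing the data. Members in Lats-deleted replicate 1 were 10 at 1 or more Cldn18-set counts, 1 at 3 or more, 4 at 2 or more cycling counts and 0 at 5 or more. Control 2 had 3 at 1 or more Cldn18-set counts. Lats-deleted replicate 2 had 154 at 5 or more cycling counts and 115 of 769 cells thinned to 3000 counts. Genes at least 2-fold higher and lower depended on the filter: without one they were 2808 and 2385 (54.1% higher) against other kept cells, 1192 and 3002 (28.4% higher) against other cycling cells and 1441 and 2350 against noncycling Cldn18 cells. At 20 CPM they were 292 and 487, 414 and 355, and 189 and 326 in the same order. With only the 138 noncycling Cldn18 cells at or above the members' lower-quartile counts, 547 were higher and 645 lower, against 354 and 537. TMM scaling shifted the median log2 ratio of all genes against other cycling cells to 0.16, with 62.7% of calls higher in place of 54.2%. Lists of 5 or more measured genes with a median at least 2-fold higher than in noncycling Cldn18 cells went to 1 with the mean of per-cell CPM and to 1 with 5 or more cycling counts, against 2. Reversed log2 ratios were Gip 1.37 over other kept cells (2000 counts), and over noncycling Cldn18 cells Lyz1 0.16 (3 Cldn18-set counts), Defa24 0.32 and Lyz2 2.32 (5 cycling counts). The causes were not tested. Of the named genes past 2-fold, 6 of 105 against other kept cells, 13 of 81 against other cycling cells and 18 of 84 against noncycling Cldn18 cells fell under it in at least 1 alternative. The depth of 74 other cycling cells (381953 counts) limits genes at low levels.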
